A study of Mus musculus with 4 samples.

Results

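The chemokine ligands were described in small intestinal group 3 innate lymphoid cells (ILC3s) with and without Brg1, the ATPase encoded by Smarca4 that drives the BAF chromatin remodelling complex. The ligands are the protein-coding genes whose symbol is Ccl or Cxcl followed by a number, together with Xcl1 and Cx3cl1. There were 37 of them among the 21963 protein-coding genes and the 53379 genes in all that were given a value. RNA was sequenced from 4 libraries, 2 of Brg1-sufficient (control) and 2 of Brg1-deficient ILC3s. Controls came from Thy1.2 Rag1-/- Smarca4 f/f donors and Brg1-deficient cells from Thy1.1/Thy1.2 Rag1-/- Smarca4 f/f donors that also carried a Cre transgene, so both groups carried floxed Smarca4 on a background without T and B cells. Equal numbers of marrow cells of both donors were placed in the same sublethally irradiated Rag2-/-Il2rg-/- hosts, which lack lymphocytes of their own. Thy1.2high CD45low cells of the small intestinal lamina propria, positive or negative for Thy1.1, were sorted 6 to 7 weeks later. The congenic Thy1 marker went with the genotype, and the effects of the pair cannot be told apart. The age of the animals and the number of mice behind a library were not given in the sources used here.

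Chemokines are small secreted proteins that guide cells along a gradient through G protein-coupled receptors, and their names follow the spacing of the first cysteines. Some are made at rest and place lymphocytes in tissues, such as Ccl19, Ccl21 and Cxcl13, and others are switched on by cytokines or microbial products, such as Cxcl1, Cxcl2 and Cxcl10. In the gut, innate lymphoid cells both follow chemokines through CCR6, CCR7, CCR9 and CXCR6 and release chemokines that attract neutrophils, dendritic cells and lymphocytes. Many ligand genes lie side by side in clusters that arose by duplication.

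Levels are given as FPKM, the fragments of a gene scaled to its transcript length and to the size of the library, so that levels of different genes can be set side by side. Smarca4 itself was at 17.07 and 16.73 FPKM in the controls and at 9.98 and 9.03 FPKM without Brg1, a log2 fold change of -0.77 (standard error 0.164, limma adjusted p = 0.153). All 12 genes of an ILC3 marker list were above 1 FPKM in every library. Marker genes of other cells were also detected, at levels that differed between libraries. The summed level of 14 ILC2 markers was 667 and 290 FPKM in controls 1 and 2 and 113 and 144 FPKM in Brg1-deficient libraries 1 and 2. Gata3, which ILC3s also express, gave 183, 110, 74.5 and 105 FPKM of these sums. In the same order, 12 macrophage markers summed to 164, 356, 121 and 316 FPKM, 12 dendritic cell markers, class II genes included, to 2117, 1917, 753 and 1230 FPKM, and 7 T-cell markers to 58.9, 22.5, 4.76 and 13.4 FPKM. No T-cell or macrophage marker was at 0 in any library, and of the ILC2 markers Il13 was at 0 in both Brg1-deficient libraries. Of the dendritic cell markers, Flt3, Clec9a, Cd209a, Itgax and Siglech were each at no more than 1.22 FPKM in any library. Markers of granulocytes and mast cells (13), B cells (6) and epithelium (10) summed to at most 15.2, 10.9 and 9.81 FPKM in any library. The 10 stromal and endothelial markers summed to 68.2 to 92.5 FPKM. Most of that was Pecam1, at 62.25 to 87.92 FPKM, while Cdh5 and Kdr were at no more than 0.77 FPKM. In bulk RNA, fewer cells of a type and less RNA per cell cannot be told apart.

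The stretches before the starts of 6 ligands that passed a wider set of criteria given below (Cxcl10, Cxcl9, Ccl1, Cxcl1, Xcl1 and Ccl21a) are printed here, with those of Cxcl2 and Cxcl3, which passed no rule, for comparison with their neighbour Cxcl1. That of Cx3cl1, which passed too, is not printed because it lies within an annotated first exon. RefSeq windows on GRCm38, from 250 bases before to 50 bases after each start, existed for 27 of the 37 ligands, 33 windows in all. The letters GGGAATTTC, a form of the NF-kB motif, stood in 4 of the 33 ligand windows on either strand, against 0.259% of all 32851 windows. Those windows belonged to Cxcl1, Cxcl2, Cxcl3 and Cxcl9, with the motif 71, 97, 73 and 154 bases before the start. The letters GAAANNGAA, part of the element bound by interferon-regulatory factors, stood in 6 of the 33 windows, against 8.56% of all windows. This motif was added after the ligand values had been seen. It lay 213 bases before the start of Cxcl10, 175 bases before that of Cxcl9 and, on the other strand, 91 bases before that of Ccl1. The stretches run 5′ to 3′ on the strand of the gene and end at the base before the start, with both motifs in capitals in either orientation. They lie at chr5:92348890-92349119 (minus strand), chr5:92328080-92328279 (minus strand), chr11:82179813-82179922 (minus strand), chr5:90891135-90891244 (plus strand), chr5:90903789-90903898 (plus strand), chr5:90785991-90786100 (plus strand), chr1:164935523-164935632 (minus strand) and chr4:42773992-42774101 (minus strand).
Cxcl10: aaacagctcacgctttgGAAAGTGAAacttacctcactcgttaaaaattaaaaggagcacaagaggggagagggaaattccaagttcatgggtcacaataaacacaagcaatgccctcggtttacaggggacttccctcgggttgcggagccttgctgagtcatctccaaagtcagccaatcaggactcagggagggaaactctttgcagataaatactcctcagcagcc
Cxcl9: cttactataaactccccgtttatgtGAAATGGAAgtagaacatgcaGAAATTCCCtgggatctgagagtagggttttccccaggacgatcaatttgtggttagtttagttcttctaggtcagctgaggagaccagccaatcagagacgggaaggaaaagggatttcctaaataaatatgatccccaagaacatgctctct
Ccl1: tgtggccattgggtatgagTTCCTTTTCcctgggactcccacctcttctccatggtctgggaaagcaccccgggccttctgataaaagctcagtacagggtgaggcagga
Cxcl1: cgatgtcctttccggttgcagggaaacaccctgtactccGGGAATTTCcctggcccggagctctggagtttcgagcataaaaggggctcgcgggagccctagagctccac
Cxcl2: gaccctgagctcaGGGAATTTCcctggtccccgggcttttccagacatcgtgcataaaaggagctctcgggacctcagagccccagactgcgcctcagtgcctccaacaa
Cxcl3: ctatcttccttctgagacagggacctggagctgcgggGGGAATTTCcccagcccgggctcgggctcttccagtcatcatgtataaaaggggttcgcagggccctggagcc
Xcl1: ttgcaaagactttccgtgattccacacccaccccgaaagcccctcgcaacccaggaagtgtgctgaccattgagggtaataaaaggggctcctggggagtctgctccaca
Ccl21a: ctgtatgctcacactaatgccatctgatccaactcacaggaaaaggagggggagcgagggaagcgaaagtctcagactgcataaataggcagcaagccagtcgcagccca
The stretches of Cxcl1, Cxcl2 and Cxcl3 each hold the NF-kB letters, and those of Xcl1 and Ccl21a hold neither motif in capitals. Of the other motifs counted, AP-1 (TGACTCA) stood in 6 ligand windows (5.2% of all windows), Runx (TGTGGT) in 5 (16.8%), the TATA box (TATAAA) in 10 (13.6%) and STAT (TTCNNNGAA) in 2 (8.3%). The T-box forms AGGTGTGA and TCACAC stood in 1 window (1.28%) and 3 windows (14.5%), and the NF-kB form GGGACTTTC in 0 (0.353%). Such matches are descriptions of letters and say nothing of binding.

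Of the 37 ligands, 24 had a mean above 1 FPKM in either group and were tested, and 13 did not and were not tested. The total of the ligands was alike in the groups and its make-up was not. Summed over all ligands, the level was 508 and 499.9 FPKM in the controls and 508.3 and 463.4 FPKM in ILC3s without Brg1. Cxcl10 gave 14.6% and 17.7% of that sum in the controls and 52.9% and 47.1% without Brg1. Without Cxcl10, the remaining ligands summed to 434 and 411 FPKM in the controls and to 239 and 245 FPKM in Brg1-deficient cells. The deposited values have nearly the same distribution in every library, so a difference in total RNA would not be seen in them. The number of genes above 0 FPKM did differ, at 35241 and 33206 in the controls and 30046 and 36929 without Brg1. In the controls, Cx3cl1 (mean 102 FPKM ± 7.74, SD, n = 2), Cxcl2 (99.4 ± 49.4) and Cxcl10 (81.3 ± 10.3) led. Cxcl2 overlapped with both of the others, whereas both values of Cx3cl1 were above both of Cxcl10. In Brg1-deficient cells, Cxcl10 (244 FPKM ± 35.9) stood above Cxcl2 (77.2 ± 17.5), and Cxcl2 above Cx3cl1 (35.4 ± 18.2), with no overlap between neighbours in that order.

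**Figure D1:**
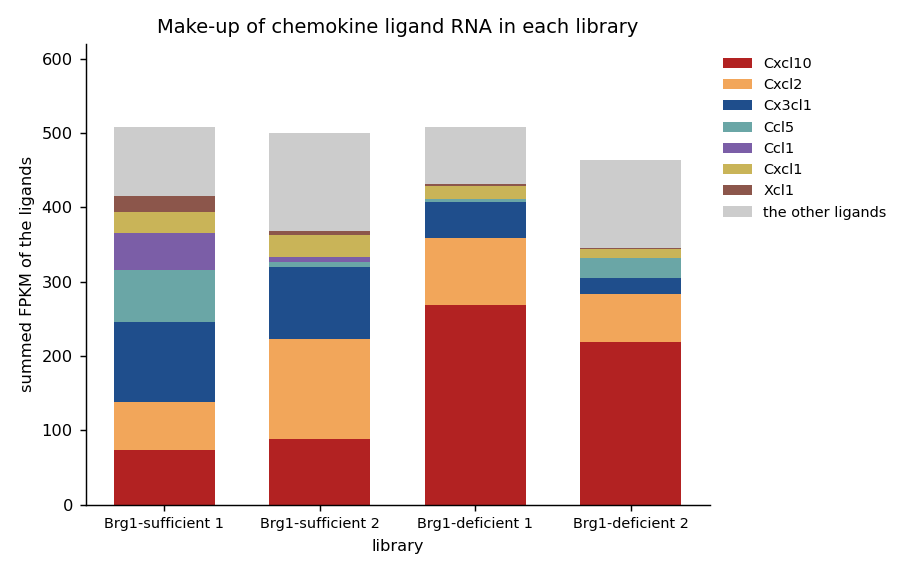
Summed FPKM of the 37 chemokine ligands in each of the 4 libraries (bars from 0), split by ligand. The total lies between 463.4 and 508.3 FPKM in all libraries, and the part from Cxcl10 is 74.0 and 88.6 FPKM in the controls and 269 and 218 FPKM without Brg1.

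No ligand passed an adjusted p of 0.05 from limma in either direction (0 lower and 0 higher, against 0.208% and 0.0542% of all protein-coding genes tested). At an unadjusted p under 0.05, 5 ligands were lower and 3 were higher, or 20.8% and 12.5% of those tested, against 6.47% and 6.00% of protein-coding genes. A wider set of criteria, taken from the study's methods, asked for a p under 0.05, an adjusted p under 0.4, a mean above 5 FPKM in either group and a log2 ratio of the means past 0.5 in size. By these list criteria, Ccl1, Ccl21a, Xcl1, Cx3cl1 and Cxcl1 were lower and Cxcl10 and Cxcl9 were higher in Brg1-deficient ILC3s. That is 5 and 2 of 24 ligands, or 20.8% and 8.33%, against 4.86% and 4.16% of protein-coding genes. Both Brg1-deficient libraries were below both controls for 9 ligands (37.5%, against 20.9% of protein-coding genes) and above both for 3 (12.5%, against 25.4%). The groups overlapped for the other 12. The median log2 fold change of the 24 ligands was -0.32, with 17 negative and 7 positive, beside a median of 0.03 over all 14739 genes tested. The smallest p that an exact two-sided permutation test allows for 2 against 2 libraries is 0.333, so each call rests on the spread limma shares across genes.

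**Figure D2:**
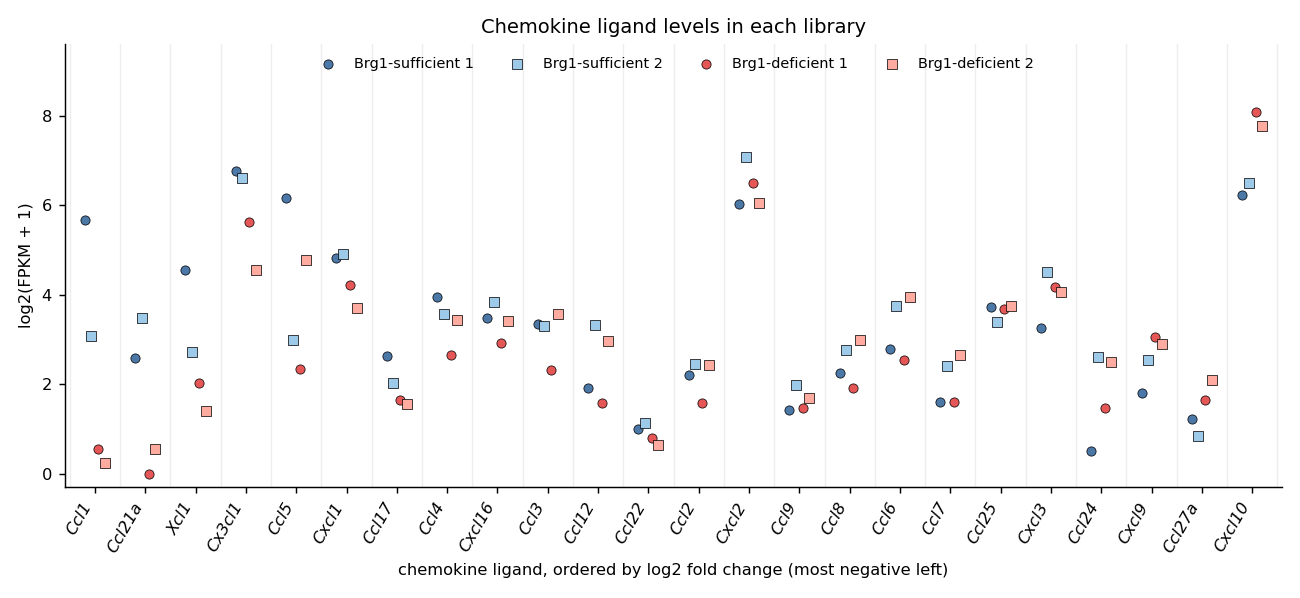
Level of the 24 tested ligands as log2(FPKM + 1) in each library, ordered from the most negative log2 fold change (Ccl1, -3.97) to the most positive (Cxcl10, 1.57). Circles are libraries numbered 1 and squares libraries numbered 2. For Ccl1, Ccl21a, Xcl1 and Cx3cl1 both Brg1-deficient points lie below both control points, and for Cxcl10 above them.

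Cxcl9 and Cxcl10 recruit activated T cells and NK cells through CXCR3 and are textbook interferon-induced genes. Cxcl10 was at 74.04 and 88.56 FPKM in the controls and at 269.10 and 218.29 FPKM in ILC3s without Brg1. Both Brg1-deficient libraries were well above both controls, and the mean was 299.7% of that of the controls. The log2 fold change was 1.57 (standard error 0.173, 95% interval 1.13 to 2.01, limma adjusted p = 0.0548). Cxcl9 was at 2.50 and 4.81 FPKM in the controls and at 7.26 and 6.4 FPKM without Brg1, again without overlap. Its log2 fold change was 0.79 (standard error 0.300, 95% interval 0.04 to 1.55, limma adjusted p = 0.375). Cxcl11, the remaining CXCR3 ligand, is annotated as a polymorphic pseudogene and therefore fell outside the rule. It was at 0.55 and 0.66 FPKM in the controls and at 4.08 and 3.41 FPKM in Brg1-deficient cells, a log2 fold change of 1.56 (limma adjusted p = 0.113). The receptor gene Cxcr3 was at 3.39 and 3.88 FPKM in the controls and at 6.42 and 4.39 FPKM without Brg1, with a log2 fold change of 0.45 that did not pass either rule (limma adjusted p = 0.533). Cxcl10 kept its list call with any library left out, with log2 fold changes of 1.42 to 1.72, whereas Cxcl9 kept it only without control 2 (1.16). Without control 1, Brg1-deficient library 1 or Brg1-deficient library 2, the log2 fold change of Cxcl9 was 0.43, 0.71 or 0.87 with limma adjusted p = 0.464, 0.775 or 0.754. Its call was also lost without a filter on low values (adjusted p = 0.783), with a filter of 5 FPKM (0.376) and without limma's trend (0.406).

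The 3 CXCR3 ligand genes lie within 44.1 kb of chromosome 5 (92321347 to 92365485, GRCm38), all on the minus strand. All 3 had positive log2 fold changes, while the 4 tested neighbours within 100 kb ranged from -0.94 to 0.59. Among them Naaa was at 0.59, Sdad1 at 0.23 and Nup54 at 0.15, none past the list criteria, and Scarb2 was lower by them (-0.94). Exons of Cxcl10 overlap those of Art3 on the opposite strand. Art3 was at no more than 1.0 FPKM in any library.

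Cxcl1, Cxcl2 and Cxcl3 attract neutrophils through CXCR2. Their genes lie together on chromosome 5, from 90786103 at the start of Cxcl3 to 90905938 at the end of Cxcl2 (GRCm38). Cxcl1 was at 27.41 and 28.80 FPKM in the controls and at 17.48 and 12.04 FPKM in Brg1-deficient cells. The groups did not overlap, and the mean was 52.5% of that of the controls, at a log2 fold change of -0.91 (standard error 0.214, 95% interval -1.44 to -0.37, limma adjusted p = 0.184). Cxcl2 was at 64.52 and 134.37 FPKM in the controls and at 89.59 and 64.85 FPKM without Brg1. Both Brg1-deficient values fell inside the control range, and the interval of the log2 fold change (-0.29, or 0.24 without control 2) ran from -1.22 to 0.65. Cxcl3 was at 8.59 and 21.55 FPKM in the controls and at 16.97 and 15.70 FPKM in Brg1-deficient cells, also within the control range, with an interval of -0.79 to 1.26. Its log2 fold change of 0.24 became 0.85 without control 2, then past the list criteria, and -0.38 without control 1. Cxcl2 and Cxcl3 share 3.84% and 2.35% of their 90-base transcript windows with each other, and reads from those could have been assigned to either. The call of Cxcl1 was lost without control 1, control 2 or Brg1-deficient library 2, at log2 fold changes of -0.94, -0.87 and -0.65. It was also lost without a filter on low values (adjusted p = 0.470). Cxcr2 itself was at no more than 0.16 FPKM in any library.

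Cx3cl1 and Cxcl16 are made as membrane-bound proteins that can be shed. Cx3cl1, or fractalkine, is the ligand of CX3CR1 on mononuclear phagocytes, and was the ligand with the highest mean in the controls. It was at 107.24 and 96.29 FPKM in the controls and at 48.22 and 22.52 FPKM in ILC3s without Brg1. The Brg1-deficient mean was 34.8% of the control mean, with no overlap, which is a log2 fold change of -1.59 (standard error 0.353, 95% interval -2.48 to -0.70, limma adjusted p = 0.167). The summed level of 7 markers of CCR6+ lymphoid tissue inducer cells was 961 and 996 FPKM in the controls and 601 and 690 FPKM without Brg1. Ltb gave 473 and 491 FPKM of this sum in the controls and 243 and 317 FPKM without Brg1. Ltb, Ccr6, Cd4, Nrp1 and Tnfrsf11a were below both controls without Brg1. Lta overlapped (107 and 118 FPKM against 113 and 119 FPKM), and Cxcr5 was above both controls. The part of these cells in the Cx3cl1 values was not tested. Without control 1 or control 2, the log2 fold change of Cx3cl1 was -1.52 or -1.67 and no longer passed the list criteria. Without Brg1-deficient library 2 it was -1.06 (limma adjusted p = 0.421). Cxcl16, the ligand of CXCR6, was at 10.07 and 13.29 FPKM in the controls and at 6.55 and 9.56 FPKM without Brg1. Both Brg1-deficient values were below both controls, but the interval of -1.12 to 0.13 included no change. Exons of Cxcl16 overlap those of Zmynd15. The receptor gene Cxcr6, a marker of gut ILC3s, was at 376 and 448 FPKM in the controls and at 442 and 414 FPKM without Brg1, a log2 fold change of 0.06 (standard error 0.149).

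Cx3cl1 lies between Ccl22 and Ccl17 on chromosome 8 (94745590 to 94812036, GRCm38), within 66.4 kb. Ccl22 and Ccl17 are ligands of CCR4, the receptor of Th2 and regulatory T cells. Ccl17 was at 5.20 and 3.09 FPKM in the controls and at 2.12 and 1.92 FPKM in Brg1-deficient cells, without overlap. Its log2 fold change of -0.74 (standard error 0.296, limma adjusted p = 0.402) missed the list criteria, which it met without control 2 (-1.04, limma adjusted p = 0.199). Ccl22 was near the limit of testing, at 0.99 and 1.18 FPKM in the controls and 0.74 and 0.56 FPKM without Brg1. All 3 ligands had negative log2 fold changes, whereas the 6 tested neighbours ranged from -0.24 to 0.53. Of those neighbours, Coq9 was higher by the list criteria (0.53) and 0 were lower.

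**Figure D3:**
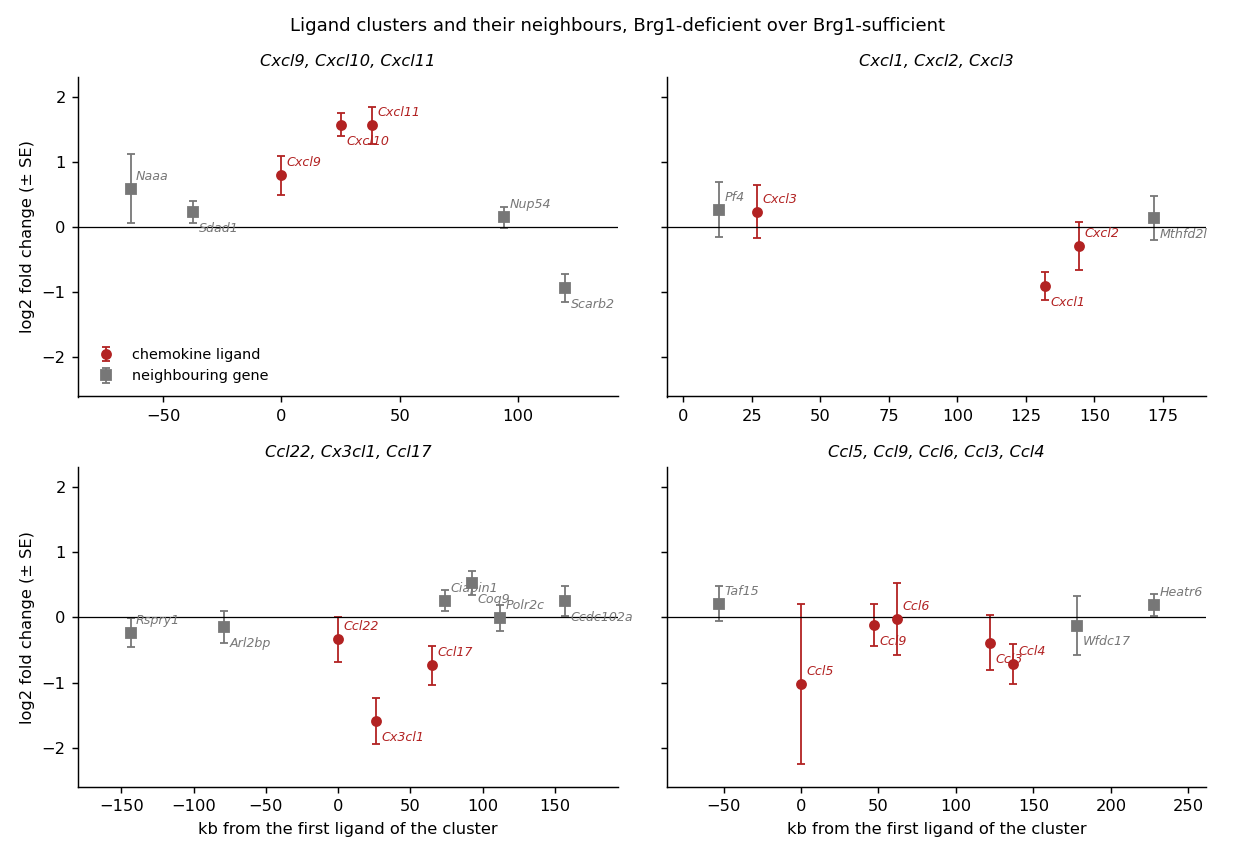
Log2 fold change (± standard error) of chemokine ligands (circles) and of tested neighbouring genes (squares) in 4 gene clusters, against distance in kb from the first ligand. Cxcl9, Cxcl10 and Cxcl11 lie at 0.79, 1.57 and 1.56, and Ccl22, Cx3cl1 and Ccl17 at -0.34, -1.59 and -0.74, with most neighbours nearer to 0.

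Ccl1 and Xcl1 differed by the list criteria but also between the controls. Ccl1, the ligand of CCR8, was at 49.58 and 7.4 FPKM in the controls and at 0.46 and 0.18 FPKM in Brg1-deficient cells. Control 1 was far above control 2, and both were above the Brg1-deficient libraries, whose mean was 1.12% of the control mean. Its log2 fold change, -3.97 (standard error 0.821, 95% interval -6.04 to -1.91, limma adjusted p = 0.148), was the most negative of all ligands. Xcl1, the ligand of XCR1 on cross-presenting dendritic cells, is made mainly by NK cells and activated T cells. It was at 22.47 and 5.62 FPKM in the controls and at 3.06 and 1.66 FPKM without Brg1. Its log2 fold change was -1.92 (standard error 0.617, 95% interval -3.48 to -0.37, limma adjusted p = 0.305), and control 2 was closer to the Brg1-deficient libraries than to control 1. Exons of Xcl1 overlap those of Gm20743. Without a filter on low values its limma adjusted p was 0.722, and the call was lost.

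Several markers of ILC2s, and Nkg7 of the NK cell list, were likewise highest in control 1 and lower in both Brg1-deficient libraries than in either control. Of the 14 ILC2 markers, 12 were tested. All 12 had both Brg1-deficient libraries below both controls (20.9% of protein-coding genes tested), and 9 were lower by the list criteria (4.86%). Ptgdr2, too low to be tested, went the other way, at 0.16 and 0.21 FPKM in the controls and 0.58 and 0.51 FPKM without Brg1. Library 1 was above library 2 in both groups, as for Ccl1 and Xcl1, in 5 of the 14. The share of all protein-coding genes with that order was not counted, so 5 of 14 cannot be called many or few. Areg went against that order in the controls, at 26.7 and 58.7 FPKM. Calca, which encodes a neuropeptide made by ILC2s, was at 112.72 and 15.92 FPKM in the controls and at 0.88 and 0.58 FPKM without Brg1. The cytokine gene Il5 was at 24.76 and 1.64 FPKM and at 0.32 and 0.06 FPKM. Gata3, which both ILC2s and ILC3s express, was at 183 and 110 FPKM in the controls and at 74.5 and 105 FPKM without Brg1. Among 12 markers of ILC1 and NK cells, 10 were tested, and 4 were lower and 2 higher by the list criteria (4.86% and 4.16% of protein-coding genes). The 12 summed to 419 and 506 FPKM in the controls and to 658 and 471 FPKM without Brg1. The 2 higher were Gzma and Klrk1. Gzma was at 50.77 and 102.83 FPKM in the controls and at 397 and 218 FPKM without Brg1. Klrk1 was at 104.52 and 112.64 FPKM and at 165.32 and 189.76 FPKM. The cytotoxic granule gene Nkg7 was at 121.90 and 35.09 FPKM in the controls and at 4.33 and 5.10 FPKM in Brg1-deficient cells. Ncr1, which encodes NKp46 and also marks a subset of ILC3s, was at 31.3 and 35.5 FPKM and at 5.37 and 6.02 FPKM. Unlike Nkg7, most of this list was higher in control 2 than in control 1, namely Ncr1, Tbx21, Ifng, Klrb1c, Klrk1, Gzma, Gzmb and Prf1. Klrd1, Klra8 and Eomes were, like Nkg7, higher in control 1. The part of other innate lymphocytes in the Ccl1 and Xcl1 values was not tested. Without control 1, the log2 fold change of Ccl1 was -2.68 (limma adjusted p = 0.177), and it was still lower by the list criteria. Its call was lost without Brg1-deficient library 1 or 2 (-4.13 and -3.82, limma adjusted p = 0.659 and 0.679). Xcl1 without control 1 was at -1.01 (limma adjusted p = 0.446) and lost its call, as it did without Brg1-deficient library 1 (-2.23) or 2 (-1.62).

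Ccl3, Ccl4 and Ccl5 are inflammatory chemokines made by activated lymphocytes and macrophages, and Ccl6 and Ccl9 are mouse ligands of CCR1. None passed the list criteria. Ccl5 was at 70.46 and 6.88 FPKM in the controls and at 4.03 and 26.26 FPKM in Brg1-deficient cells. The groups overlapped, and the 95% interval of its log2 fold change, -4.11 to 2.08, covers large differences in both directions. Its log2 fold change of -1.02 became 0.57 without control 1 and 0.20 without Brg1-deficient library 1. The T-cell genes Cd3g (37.19 and 10.74 FPKM in the controls, 1.21 and 5.04 FPKM without Brg1) and Cd8a (1.47, 0.45, 0.36 and 0.87 FPKM) had their highest value in control 1 and their lowest in Brg1-deficient library 1, as Ccl5 had. Cd3e, Cd3d and Cd6 had them in the same libraries. The order of the other libraries was shared less. Ccl5 was higher in Brg1-deficient library 2 than in control 2, as were Cd8a and Cd8b1. Cd3g, Cd3e (7.02 FPKM in control 2, 3.08 FPKM in Brg1-deficient library 2), Cd3d, Cd6 and Cd5 had the opposite order. Cd8b1 was lowest in control 2 (4.38, 0.58, 0.74 and 1.94 FPKM). Cd5 was highest in Brg1-deficient library 1 (0.28, 0.21, 0.30 and 0.19 FPKM). Of the 7 T-cell markers, 4 were tested, and 3 of those had both Brg1-deficient libraries below both controls (20.9% of protein-coding genes tested). The Rag1-/- donors and Rag2-/-Il2rg-/- hosts lack T cells by genotype. The cells in which these genes and Ccl5 were expressed were not identified, and their part in the Ccl5 values was not tested. Ccl4 was at 14.44 and 10.87 FPKM in the controls and at 5.29 and 9.80 FPKM without Brg1. Both Brg1-deficient values were below both controls, at a log2 fold change of -0.72 with an interval of -1.50 to 0.07. Ccl3 was at 9.23 and 8.91 FPKM in the controls and at 3.97 and 10.86 FPKM in Brg1-deficient cells, which lay on either side of the controls, and its log2 fold change of -0.39 became 0.24 without Brg1-deficient library 1.

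**Figure D4:**
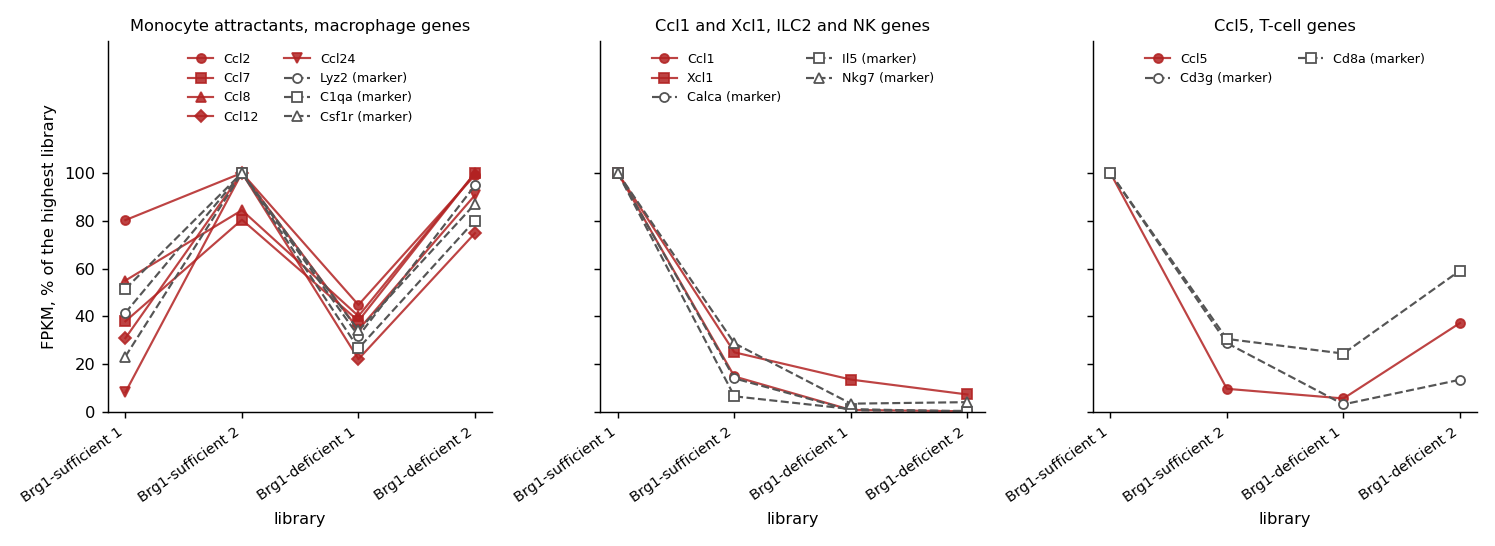
FPKM of ligands (solid lines) and marker genes (dashed lines) in the 4 libraries, as a percent of the highest library for each gene, with lines only joining the points of a gene. In the left panel, Ccl2, Ccl7, Ccl8, Ccl12 and Ccl24 and the macrophage genes are higher in library 2 than in library 1 of both groups. In the middle panel Ccl1 and Xcl1 are highest in control 1 together with Calca, Il5 and Nkg7, and in the right panel Ccl5 is set beside the T-cell genes. Most other markers of the ILC1 and NK cell list, not shown, were higher in control 2 than in control 1.

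Ligands that attract monocytes and eosinophils differed more within the groups than between them. All 5 that were tested were higher in library 2 than in library 1 in both groups, as were 9 of the 24 ligands tested (37.5%, against 27.1% of protein-coding genes). Ccl2, the CCR2 ligand that draws monocytes from blood, was at 3.58 and 4.46 FPKM in the controls and at 2.0 and 4.42 FPKM in Brg1-deficient cells. Ccl7 was at 2.02 and 4.28 FPKM and at 2.03 and 5.32 FPKM. Ccl8 was at 3.78 and 5.80 FPKM and at 2.76 and 6.87 FPKM. In these as in the next ligands, the libraries of each group were further apart than the group means. Ccl12 was at 2.79 and 9.02 FPKM in the controls and at 2.0 and 6.75 FPKM without Brg1. Ccl24, or eotaxin-2, was at 0.42 and 5.08 FPKM and at 1.75 and 4.61 FPKM. Their log2 fold changes lay between -0.35 and 0.42. The 95% intervals of Ccl12 (-1.94 to 1.23) and Ccl24 (-1.48 to 2.31) were the widest and include differences of several fold. Those of Ccl2, Ccl7 and Ccl8 lay between -1.18 and 1.30. Each of the 5 changed sign when a single library was left out. Of the 12 macrophage markers, 11 were also higher in library 2 of both groups. Lyz2, which encodes lysozyme, was at 84.11 and 202.51 FPKM in the controls and at 64.44 and 191.92 FPKM without Brg1. C1qa, a complement gene of tissue macrophages, was at 22.1 and 42.9 FPKM and at 11.4 and 34.4 FPKM. Ccl6 (5.89 and 12.50 FPKM in the controls, 4.79 and 14.41 FPKM without Brg1) and Ccl9 (1.67, 2.97, 1.77 and 2.24 FPKM) had the same order. The sort took Thy1.2high CD45low cells, a gate for ILC3s and not for macrophages, and the part of macrophages in these values was not tested.

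Ccl21a, Ccl25 and Ccl27a are homing chemokines of lymphoid tissue, small intestine and skin. Ccl21a was at 5.0 and 10.20 FPKM in the controls and listed at 0.00 and 0.46 FPKM without Brg1. The groups did not overlap, at a log2 fold change of -2.76 (standard error 0.411, 95% interval -3.80 to -1.73, limma adjusted p = 0.0901). The value is uncertain, since 54.8% of the 90-base windows of its transcript are also found in Ccl21b, Gm10591, Gm13304 or Gm21541. Ccl21b, all of whose windows (100%) are shared, was at no more than 0.64 FPKM, Gm13304 at 2.10, 0.00, 0.66 and 0.00 FPKM and Gm21541 at 0.00, 2.01, 0.00 and 0.00 FPKM. The call of Ccl21a held without control 1 (-3.21, limma adjusted p = 0.245). It was lost without control 2 (-2.31), where the remaining control value of 5.0 FPKM is not above the limit of 5, and without Brg1-deficient library 1 (-2.49, limma adjusted p = 0.543) or 2 (-3.04, adjusted p = 0.485). Ccl25, the CCR9 ligand of small intestinal epithelium, was at 12.30 and 9.55 FPKM in the controls and at 11.73 and 12.34 FPKM without Brg1. Its interval, -0.35 to 0.62, was the narrowest among ligands that passed no rule. Exons of Ccl25 overlap those of Elavl1. Ccl27a was at 1.33 and 0.78 FPKM in the controls and at 2.11 and 3.25 FPKM in Brg1-deficient cells. It was above the controls in both libraries at a log2 fold change of 0.84 (limma adjusted p = 0.395), but its mean of 2.68 FPKM was too low for the list criteria. Its exons overlap those of Il11ra1, and 28.8% of its windows are shared with Ccl27b and related copies.

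**Figure D5:**
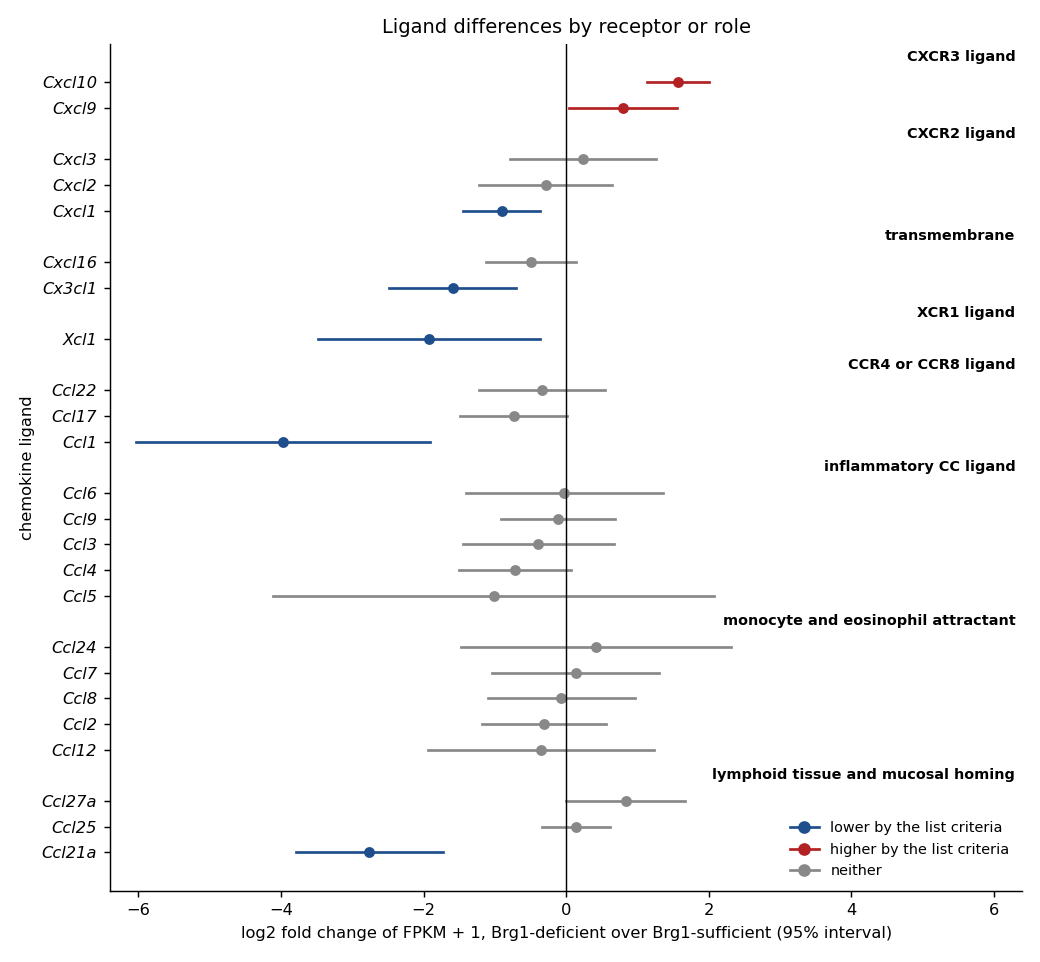
Log2 fold change of FPKM + 1 with its 95% interval for the 24 tested ligands, grouped by receptor or role. The 5 ligands lower and the 2 higher by the list criteria are coloured, and the remaining intervals, except that of Ccl27a, include 0.

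The 13 ligands that were not tested had values from 0 to 1.36 FPKM. They are Ccl11, Ccl19, Ccl20, Ccl21b, Ccl26, Ccl27b, Ccl28, Cxcl5, Cxcl12, Cxcl13, Cxcl14, Cxcl15 and Cxcl17, and Ccl26 and Ccl27b were listed at 0 in every library. Several of these are products of stroma or epithelium, such as Cxcl12, Cxcl13 and Ccl20.

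Receptors for these ligands were lower in several cases. Of 24 receptor genes, 16 were tested, and 9 were lower and 0 higher by the list criteria (4.86% and 4.16% of protein-coding genes). By limma's adjusted p under 0.05, 0 receptors were called, and at an unadjusted p under 0.05 the counts were again 9 and 0. The median log2 fold change was -0.79. Ccr8, the receptor of Ccl1 and itself in the ILC2 marker list, was at 51.74 and 8.41 FPKM in the controls and at 0.23 and 0.24 FPKM in Brg1-deficient cells (-4.17), in the same order as Ccl1 in the controls. Ccr7, the receptor of Ccl21a that takes cells to lymph nodes, was at 45.88 and 20.91 FPKM and at 8.05 and 6.11 FPKM (-2.0). Ccr6, which marks lymphoid tissue inducer cells among ILC3s, was at 186 and 203 FPKM and at 92.9 and 106 FPKM (-0.96, limma adjusted p = 0.0901), with little spread in either group. Ccr2 (-1.19), Ccr1 (-1.11), Ccr9 (-0.80), Ackr3 (-0.79) and Cxcr4 (-0.75) were also lower. Xcr1, the receptor of Xcl1, was at 3.74 and 3.01 FPKM and at 2.72 and 2.68 FPKM (-0.24, limma adjusted p = 0.713), and Cx3cr1 was at no more than 2.03 FPKM in any library. Cxcr5, the Cxcl13 receptor, was above both controls in both Brg1-deficient libraries (63.1 and 65.8 FPKM against 85.9 and 77.7 FPKM, limma adjusted p = 0.407). The count of 9 lower receptors became 6 without control 1, 5 without control 2, 0 without Brg1-deficient library 1 and 1, Ccr6, without Brg1-deficient library 2.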

How the data were processed

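RNA of 4 libraries was analysed. The authors used STAR v2.5 to align reads to GRCm38 and RSEM v1.2 with the GENCODE M16 annotation to estimate expression, and deposited 1 FPKM value per gene and library. Sorted FPKM values were nearly equal between libraries, as quantile normalization gives. Counts were not used here, so depth is unknown and no counting interval was computed, and the count test of the study's methods was not run. Libraries were grouped by the genotype in their labels. The 14739 genes with a mean above 1 FPKM in either group, of which 11069 are protein-coding, were tested with limma 3.58.1 (R 4.3.3, eBayes with trend) on log2(FPKM + 1), which understates changes of low genes, with Benjamini-Hochberg adjustment. The methods call the replicates biological, and neither they nor the labels say that equal numbers mark a shared mouse. The correlation of the deviations of same-numbered libraries was -0.000386, and numbers were not used as a block in the main fit. This value cannot tell whether mice were shared.

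Every ligand above that limit was named with its values, as were receptors and pathway genes past either rule and marker genes that touch a result. Clusters, neighbours and exon overlaps came from GENCODE M21, and promoters from RefSeq on GRCm38. Sharing was counted over windows of 90 bases, the read length per the labels. The library preparation as described does not mark strand. The ligands, lists, tests and alternatives were chosen with earlier results of these data known. The limma fit was tested on simulated data with known changes. Chromatin accessibility was not analysed here. The driver of the Cre transgene, the values of a receptor gene and a marker gene in the counts, and the matches of a motif are not reported here.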

Additional observations from a re-analysis of the deposited data

How the results depend on the processing

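With all libraries kept, no tested ligand changed sign under a pseudocount of 0.1 or quantile normalization. The deposited values were already nearly equal in distribution, so that normalization altered little. Other filters, limma without the trend and the replicate block leave each log2 fold change as it was and could not change a sign. Leaving out 1 library at a time moved the count of ligands lower by the list criteria from 5 to between 0 and 3, with 0 without Brg1-deficient library 2, and the count higher from 2 to between 1 and 3. The receptors lower went from 9 to between 0 and 6, and the signalling and processing genes called went from 2 to between 0 and 3. This last result was added to the alternatives after the data had been seen. The median log2 fold change of the ligands lay between -0.67 and 0.14 and was positive without Brg1-deficient library 1. In these fits the lone library of a group was assumed to vary as the other group does. Without a filter, 3 ligands were lower and 1 was higher by the list criteria, and 1 signalling gene was called. With the limit at a mean of 5 FPKM, 1 ligand, Cxcl10, was higher at an adjusted p under 0.05 (0.0277, fewer genes being tested) and 1 by the list criteria. Limma without the trend called 1 ligand higher by the list criteria. In each of these 3 settings the call that was lost among the higher ligands was Cxcl9, and among the lower ligands Xcl1 and Cxcl1 were lost without a filter.

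Fitting the library number as a replicate block, 4 ligands (Ccl1, Ccl21a, Cx3cl1 and Xcl1) were lower and 1 (Cxcl10) was higher by limma's adjusted p under 0.05, with values between 0.00369 and 0.0166. The correlation of same-numbered libraries over all tested genes was -0.000386, which cannot tell whether they share mice. Whether the block pairs mice is therefore unknown, and the calls depend on it. By the list criteria the block called 7 ligands lower, Ccl4 and Cxcl16 joining the 5, and changed no other count by over 1.5 times.

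Of the 24 ligands, 12 changed sign when a library was left out. None of the 12 had passed either rule. Their log2 fold changes then ranged from -1.06 to 0.35 for Ccl12, -0.74 to 0.12 for Ccl2, -0.63 to 1.47 for Ccl24, -0.029 to 0.30 for Ccl25, -1.02 to 0.24 for Ccl3 and -2.61 to 0.57 for Ccl5. The ranges were -0.74 to 0.68 for Ccl6, -0.40 to 0.66 for Ccl7, -0.60 to 0.47 for Ccl8, -0.41 to 0.17 for Ccl9, -0.81 to 0.24 for Cxcl2 and -0.38 to 0.85 for Cxcl3. The cause of these changes, beyond the smaller number of libraries, was not tested.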

Other observations

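The genes that carry the signal from chemokine receptors into the cell, and those that cut the ligands, were listed apart from ligands and receptors. Of 21 signalling genes tested (G protein subunits, arrestins, receptor kinases and regulators of Rac and Rap), 2 were lower and 0 higher by the list criteria in Brg1-deficient ILC3s, with a median log2 fold change of -0.04, against 4.86% and 4.16% of protein-coding genes. By limma's adjusted p under 0.05 the count was 0, and at an unadjusted p under 0.05 it was 2. Grk3, a kinase that silences occupied receptors, was at 6.35 and 4.46 FPKM in the controls and at 0.90 and 1.54 FPKM without Brg1 (log2 fold change -1.53, limma adjusted p = 0.132). Rap1a, a small GTPase of integrin activation, was at 33.5 and 40.9 FPKM and at 22.8 and 27.0 FPKM (-0.56, limma adjusted p = 0.304). Among the 3 processing genes, 0 passed the list criteria. Dpp4, which encodes the protease CD26 that trims Cxcl10 and other chemokines, was at 5.24 and 2.72 FPKM in the controls and at 0.95 FPKM in both Brg1-deficient libraries, with a mean too low for those criteria (-1.30, limma adjusted p = 0.228). Adam10 and Adam17, the proteases that shed Cx3cl1 and Cxcl16, had log2 fold changes of 0.11 and -0.22.

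Pf4, a platelet chemokine whose symbol falls outside the rule, was at 3.15 and 5.85 FPKM in the controls and at 3.55 and 8.02 FPKM without Brg1, higher in library 2 of both groups as the macrophage markers were. The related Ppbp was at no more than 0.27 FPKM and was not tested. Of the 12 dendritic cell markers, 7 were tested, and 5 were lower (Zbtb46, H2-Aa, H2-Ab1, H2-Eb1 and Cd74) and 1 higher by the list criteria, against 4.86% and 4.16% of protein-coding genes. Zbtb46 was at 40.4 and 31.1 FPKM in the controls and at 12.2 and 7.51 FPKM without Brg1 (limma adjusted p = 0.0917). Flt3, Cd209a, Itgax and Siglech of the same list were near the floor, and the cells in which Zbtb46 was expressed were not identified. The class II antigen presentation gene Cd74, in the list of dendritic cell markers and also expressed by CCR6+ ILC3s, was at 1014 and 940 FPKM in the controls and at 223 and 505 FPKM without Brg1, while the dendritic cell gene Clec9a was at no more than 1.22 FPKM in any library. Batf3 was the higher one (47.8 and 77.3 FPKM against 100.6 and 124.6 FPKM).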
